A study of Xenopus laevis with 6 samples.

Results

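Cadherins, protocadherins, desmosome components, and catenin and catenin-like genes were followed by RNA sequencing of whole embryos of the clawed frog Xenopus laevis. The genes were chosen by name: the numbered cadherins, all protocadherins, desmocollins, desmogleins, desmoplakin, plakoglobin and plakophilins except pkp3. Genes whose symbol begins with ctnna, ctnnb or ctnnd were also taken. Of the plakophilins chosen, only pkp4-like genes were in the count table. That table held 87 genes chosen by these names among 45090, and 53 of the 87 passed the filter on low counts and were tested, among 21673 tested genes in all. There were 3 libraries of half-size embryos and 3 of intact embryos. All embryos were wild type and were collected at Nieuwkoop and Faber stage 12.5, the late gastrula. Half-size embryos had grown from blastomeres that were separated when the embryo had 2 cells, and the intact embryos of the same replicate number were their undivided siblings. How many embryos went into a library is not stated in the labels, so the spread between libraries is that between sibling batches.

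Classical cadherins are membrane proteins that bind like cadherins on the next cell and are coupled to actin inside the cell through beta- and alpha-catenin. Desmosomes are a second kind of junction, in which desmocollins and desmogleins are tied to keratin filaments by plakoglobin, plakophilins and desmoplakin. Protocadherins adhere more weakly, and in frog gastrulae several of them sort germ layers and support the movements of mesoderm and ectoderm. In the Xenopus gastrula, C-cadherin, the product of cdh3, is supplied maternally and is present throughout the embryo, whereas E-cadherin, the product of cdh1, is made in the ectoderm.

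Total counts ranged from 20205384 to 26097821 in half-size libraries and from 20069300 to 29284864 in intact libraries, and a single count stood for 0.0348 to 0.0501 CPM, the count scaled to the size of its library. CPM is not corrected for transcript length, so levels are compared between libraries and not between genes. Libraries of siblings deviated together, and the comparison was therefore read in 2 edgeR fits, one of the groups alone and one, called the paired fit, in which each half-size library was set against its sibling library. Markers of ectoderm, mesoderm and endoderm were present in both groups, and of the 6 marker lists none held a gene at 0 counts throughout. Of the listed epidermis markers, 9 of 9 tested were lower in half-size embryos in the paired fit, with a summed level between 721 and 1240.3 CPM in half-size and between 1311 and 1999.7 CPM in intact libraries. Of the markers of multiciliated cells and ionocytes 12 of 12 were lower, of those of axial mesoderm 5 of 12 and of those of other mesoderm 2 of 18 were higher, and of 11 neural plate and 13 endoderm genes 0 passed. Of all genes tested in the paired fit 3.93% were lower and 1.99% were higher. The marker lists were chosen with earlier results of these data known, so their counts are not an independent readout. Of 8 epidermis symbols 5 were found in the count table, and of 6 symbols of multiciliated cells and ionocytes 5 were found.

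Most junction genes did not pass the test. In the paired fit 5 of the 53 tested genes passed an adjusted p of 0.05, which is 9.43%, beside 5.92% of all genes tested. The desmoplakin gene dsp.L, the E-cadherin gene cdh1.S, the cadherin gene cdh26.S and the protocadherin gene pcdh7.S fell in half-size embryos, and the clustered protocadherin gene pcdha13.S rose. These 4 falls were 7.55% of the tested members, beside 3.93% of all genes, and the 1 rise was 1.89%, beside 1.99%. In the fit of the groups alone edgeR called 0 of 53 members (0% of all genes tested), and the smallest adjusted p of a member was 0.9998. In that fit 3 members had an unadjusted p under 0.05, or 5.66%, beside 3.58% of all genes, and DESeq2 and limma-voom without pairing also called 0 members, beside 0.24% and 0% of all genes. Before adjustment, the p of the paired edgeR fit lay below 0.05 for 21 of the 53 members, or 39.6%. The log2 fold change was above 0 for 11 of these and below 0 for 10. The share of all genes at this cut is not given here, so 39.6% is not read as a result about these members. Many genes of the whole table also lay below it, since pcdh7.L, at an unadjusted p of 0.0456, had an adjusted p of 0.209 in this fit. With pairing DESeq2 gave 34 members an adjusted p and called 4 of them, or 11.8%, beside 6.72% of all genes, and limma-voom called 5 of 53, or 9.43%, beside 6.29%. Paired edgeR called 5 of 53 with edgeR's RLE scaling in place of TMM, or 9.43%, beside 5.86%. It called 12 of 83 with no filter on low counts, or 14.5%, beside 7.33%. Without replicate 1 it called 2 of 58 members, or 3.45%, beside 6.68% of all genes, without replicate 2 it called 4 of 55, or 7.27%, beside 4.8%, and without replicate 3 it called 3 of 50, or 6%, beside 2.31%. The median log2 fold change of the 53 genes in the paired fit was −0.04, beside 0.00 for all genes tested, with 25 values above 0 and 28 below. The median absolute log2 fold change was 0.23, beside 0.18 for all genes.

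**Figure D1:**
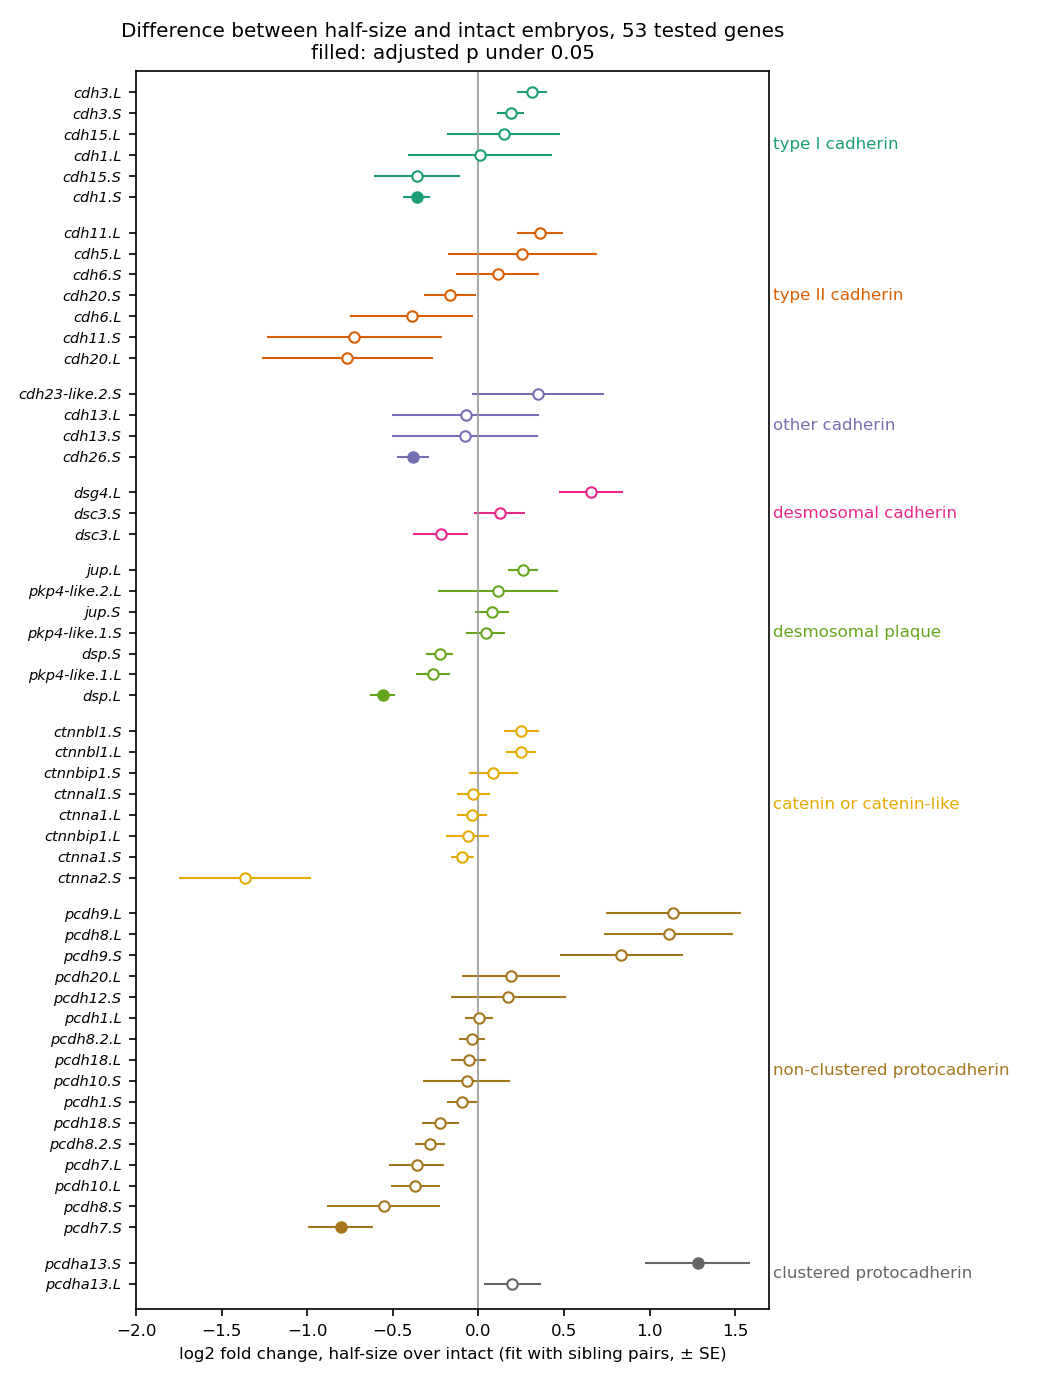
Log2 fold change of half-size over intact embryos in the paired edgeR fit (x axis, bars ± SE) for each of the 53 tested genes, grouped by role (y axis, colours). Filled points passed an adjusted p of 0.05, and these are dsp.L, cdh1.S, cdh26.S, pcdh7.S and pcdha13.S.

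Desmoplakin links the plaque of the desmosome to keratin filaments, and it was the member with the smallest p. The level of dsp.L (gene model Xelaev18031618m.g) was 338, 349 and 380.1 CPM in half-size replicates 1, 2 and 3, against 479.6, 504 and 593 CPM in intact replicates 1, 2 and 3. Every half-size library lay below every intact library. Its log2 fold change in the paired fit was −0.56 ± 0.07 (SE; adjusted p = 0.00258), or a fall by 32.1%, with log2 ratios within sibling pairs 1, 2 and 3 of −0.51, −0.53 and −0.64. The call held with any 1 pair left out (adjusted p between 0.00133 and 0.0146), and without pairing the unadjusted p was 0.00221. The homeolog dsp.S had 351, 262 and 326 CPM in half-size replicates 1, 2 and 3, against 395, 286 and 425 CPM in intact replicates 1, 2 and 3. Each half-size library was below its own sibling library, but the 2 groups overlapped and the gene did not pass (log2 fold change −0.23 ± 0.08 SE, adjusted p = 0.119). The L copy made up 53.3 ± 4.08% of dsp counts in half-size and 59.0 ± 4.53% in intact libraries (SD, n = 3 each). That share was lower in half-size embryos in 3 of 3 pairs, and the two-sided exact permutation test gave p = 0.2 (0.73 adjusted over 22 homeolog pairs), where 0.1 is the smallest p that 3 libraries against 3 allow. With both copies summed, dsp fell by 0.41 ± 0.07 (SE) on the log2 scale (paired fit, adjusted p = 0.00960).

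Plakoglobin, which stands in both desmosomes and adherens junctions and is related to beta-catenin, did not pass for either copy. The gene jup.L had 265, 189.9 and 228 CPM in half-size replicates 1, 2 and 3, against 217, 183 and 167 CPM in intact replicates 1, 2 and 3. Its half-size libraries were each above their own sibling library (log2 fold change 0.26 ± 0.09 SE, adjusted p = 0.110), and jup.S was at 0.08 ± 0.10 (SE, adjusted p = 0.692). The groups overlapped for both. The 3 tested plakophilin-4-like genes had log2 fold changes from −0.26 to 0.11, and none passed. Among desmosomal cadherins, dsc3.L averaged 9.57 ± 4.60 CPM in half-size and 10.7 ± 3.22 CPM in intact libraries (SD, n = 3 each), and dsc3.S averaged 7.98 ± 1.04 CPM in half-size and 7.43 ± 2.02 CPM in intact libraries. Their log2 fold changes in the paired fit were −0.22 ± 0.16 and 0.12 ± 0.15 (SE; adjusted p = 0.465 and 0.681). The desmoglein gene dsg4.L, singled out after its values were seen, had 4.45, 2.10 and 7.78 CPM in half-size replicates 1, 2 and 3, against 3.16, 1.32 and 4.49 CPM in intact replicates 1, 2 and 3. It was higher than its sibling in 3 of 3 pairs and did not pass (log2 fold change 0.66 ± 0.19 SE, adjusted p = 0.0635).

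**Figure D2:**
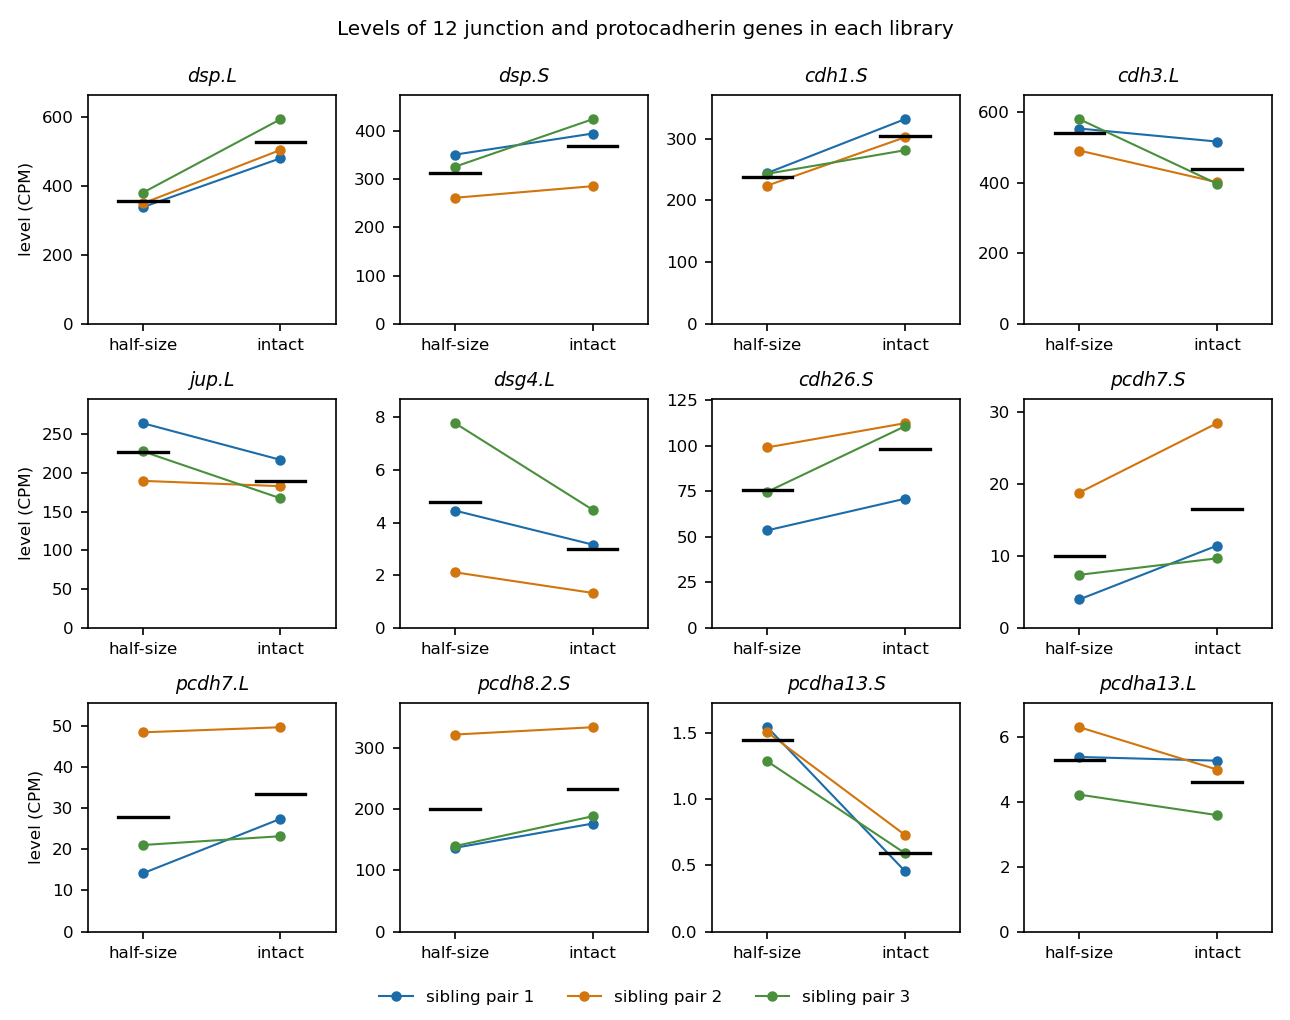
CPM (y axes, each from 0) of 12 genes in half-size and intact libraries (x axes), with lines joining siblings of 1 replicate and black bars for the group means. For dsp.L and cdh1.S the 3 half-size points lie below the 3 intact points, for pcdha13.S they lie above, and for pcdh7.S and cdh26.S each half-size point lies below its own sibling while the groups overlap.

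E-cadherin is the classical cadherin of the outer and deep ectoderm. The level of cdh1.S (Xelaev18024918m.g) was 244, 224 and 243 CPM in half-size replicates 1, 2 and 3, against 332, 302 and 281 CPM in intact replicates 1, 2 and 3. The groups did not overlap, and the paired log2 fold change was −0.36 ± 0.08 (SE, adjusted p = 0.0251), or a fall by 22.1%. The gene no longer passed when pair 1 was left out (log2 fold change −0.31, adjusted p = 0.0529) or pair 2 (−0.33, adjusted p = 0.187). In these whole embryos fewer cells of a type and less RNA per cell cannot be told apart, and the part of the lower epidermis markers in the values of cdh1.S and dsp.L was not tested. The other homeolog, cdh1.L, had 3 to 24 counts in half-size and 9 to 16 counts in intact libraries, so that cdh1 counts came almost wholly from the S copy.

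The cdh3 genes, neighbours of cdh1 on both the L and the S chromosome with no other protein-coding gene between them in RefSeq's annotation, had log2 fold changes above 0 and did not pass. The level of cdh3.L was 554, 491 and 581 CPM in half-size replicates 1, 2 and 3, against 517, 402 and 398 CPM in intact replicates 1, 2 and 3. Each half-size library was above its own sibling, and the lowest half-size library was below the highest intact one (log2 fold change 0.31 ± 0.09 SE, adjusted p = 0.0660). Once pair 1 was left out cdh3.L passed, at a log2 fold change of 0.43 (adjusted p = 0.0112), whereas it did not pass without pair 2 (0.32, adjusted p = 0.213) or without pair 3 (0.20, adjusted p = 0.334). The S copy, cdh3.S, averaged 263 ± 20.9 CPM in half-size and 232 ± 29.7 CPM in intact libraries (SD, n = 3 each; log2 fold change 0.19 ± 0.08 SE, adjusted p = 0.188). Of the 6 type I cadherin genes 1 fell and 5 did not pass. Their summed level was between 958 and 1098 CPM in half-size and between 898 and 1118 CPM in intact libraries, so the groups overlapped.

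The cdh26.S product is a cadherin of epithelia in mammals. Its level was 53.5, 99.1 and 74.7 CPM in half-size replicates 1, 2 and 3, against 70.9, 112 and 111 CPM in intact replicates 1, 2 and 3. Each half-size library was below its sibling, but pair 1 was the lowest in both groups and the groups overlapped. The paired log2 fold change was −0.38 ± 0.09 (SE, adjusted p = 0.0377), and it did not pass when pair 1 (adjusted p = 0.0602) or pair 3 (adjusted p = 0.202) was left out. Without pairing the unadjusted p was 0.210.

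Of the 25 type II cadherin genes 7 were tested and 0 passed in the paired fit, with log2 fold changes from −0.77 to 0.36. Cadherin-11, which is known in Xenopus from migrating cranial neural crest, was counted mainly as cdh11.L, at 9.93, 11.6 and 14.5 CPM in half-size replicates 1, 2 and 3, against 7.02, 10.4 and 10.7 CPM in intact replicates 1, 2 and 3. It was higher than its sibling in 3 of 3 pairs and did not pass (log2 fold change 0.36 ± 0.14 SE, adjusted p = 0.145). The S copy, cdh11.S, averaged 0.380 ± 0.145 CPM in half-size and 0.652 ± 0.349 CPM in intact libraries (SD, n = 3 each; adjusted p = 0.445).

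Alpha-catenin is the actin-linking partner of the cadherin complex. The gene ctnna1.S was at 1156, 1087 and 1128 CPM in half-size replicates 1, 2 and 3, against 1232, 1102 and 1268 CPM in intact replicates 1, 2 and 3. The groups overlapped, and its log2 fold change was −0.09 ± 0.07 (SE, adjusted p = 0.465). The L copy, ctnna1.L, averaged 103 ± 26.2 CPM in half-size and 105 ± 20.5 CPM in intact libraries (SD, n = 3 each; log2 fold change −0.04 ± 0.09 SE, adjusted p = 0.841). The neural alpha-catenin gene ctnna2.S, singled out after its values were seen, had 3, 12 and 64 counts in half-size replicates 1, 2 and 3, against 37, 28 and 98 counts in intact replicates 1, 2 and 3. It was lower in 3 of 3 pairs, by −1.36 ± 0.39 (SE) on the log2 scale in the paired fit (adjusted p = 0.0635), and passed without replicate 2 (log2 fold change −1.59, adjusted p = 0.0166) but not without replicate 1 (−0.89, adjusted p = 0.0973) or replicate 3 (−1.82, adjusted p = 0.148). Both ctnnbl1 genes, whose product is known in human cells from the splicing machinery rather than from junctions, were at 0.25 (adjusted p = 0.117 for ctnnbl1.L and 0.172 for ctnnbl1.S). In all 0 of 8 catenin and catenin-like genes passed, and these include ctnnbip1.L, ctnnbip1.S and ctnnal1.S beside those named above. The genes cdh2, dsg2, pkp2, ctnnb1 and ctnnd1 were not analysed here.

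Among non-clustered protocadherins 1 of 16 tested genes fell and 15 did not pass. The gene that fell was pcdh7.S (Xelaev18008979m.g), whose product, NF-protocadherin, acts in the deep ectoderm and the neural tube of Xenopus. Its level was 3.94, 18.8 and 7.36 CPM in half-size replicates 1, 2 and 3, against 11.4, 28.5 and 9.66 CPM in intact replicates 1, 2 and 3. Pair 2 was the highest in both groups, and each half-size library was below its sibling by log2 ratios of −1.52, −0.60 and −0.39 in pairs 1, 2 and 3. The paired log2 fold change was −0.81 ± 0.19 (SE, adjusted p = 0.0341). Leaving out pair 1 ended the call (log2 fold change −0.49, adjusted p = 0.0655), and without pairing the unadjusted p was 0.286. The L copy, pcdh7.L, had 14.2, 48.4 and 21.0 CPM in half-size replicates 1, 2 and 3, against 27.4, 49.6 and 23.2 CPM in intact replicates 1, 2 and 3, and did not pass (log2 fold change −0.36 ± 0.16 SE, adjusted p = 0.209). With both copies summed pcdh7 did not pass either (log2 fold change −0.49 ± 0.16 SE, adjusted p = 0.0971).

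Paraxial protocadherin, which in the Xenopus gastrula is made in the trunk mesoderm and takes part in convergent extension, was counted as pcdh8.2.L and pcdh8.2.S. The level of pcdh8.2.L was 314, 404 and 272 CPM in half-size replicates 1, 2 and 3, against 327, 383 and 298 CPM in intact replicates 1, 2 and 3. The level of pcdh8.2.S was 137, 322 and 139.6 CPM in half-size replicates 1, 2 and 3, against 176, 334 and 188 CPM in intact replicates 1, 2 and 3. Both were highest in pair 2 and the groups overlapped. Neither passed, at log2 fold changes of −0.04 ± 0.08 (SE, adjusted p = 0.817) and −0.28 ± 0.09 (SE, adjusted p = 0.0891). The adjacent genes pcdh8.L and pcdh8.S, at 0.717 to 3.21 CPM in half-size and 0.333 to 3.45 CPM in intact libraries, had log2 fold changes of 1.11 ± 0.38 and −0.55 ± 0.33 (SE; adjusted p = 0.111 and 0.359). Near-identical stretches of neighbouring or homeologous genes may have split reads in a way that the labels do not describe.

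Axial protocadherin, known from the Xenopus notochord, was counted as pcdh1.L and pcdh1.S. It averaged 91.5 ± 13.5 CPM in half-size and 90.9 ± 9.68 CPM in intact libraries for pcdh1.L, and 117 ± 11.6 CPM in half-size and 125 ± 3.97 CPM in intact libraries for pcdh1.S (SD, n = 3 each). The log2 fold changes were 0.00 ± 0.08 and −0.10 ± 0.09 (SE; adjusted p = 0.985 and 0.560). The groups overlapped for both genes.

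The clustered protocadherins, whose transcripts join a variable exon to shared constant exons and which are best known from neurons, were represented by 2 tested genes. The level of pcdha13.S (Xelaev18021603m.g) was 1.54, 1.5 and 1.28 CPM in half-size replicates 1, 2 and 3, against 0.457, 0.730 and 0.591 CPM in intact replicates 1, 2 and 3. These values rest on 36, 30 and 34 counts in half-size and 11, 21 and 12 counts in intact libraries. Every half-size library lay above every intact one, and the paired log2 fold change was 1.28 ± 0.31 (SE, adjusted p = 0.0360). It did not pass with any 1 of the pairs left out (adjusted p = 0.101, 0.0557 and 0.107 without replicates 1, 2 and 3), and DESeq2 with pairing gave the gene no adjusted p. The L copy, pcdha13.L, averaged 5.31 ± 1.04 CPM in half-size and 4.63 ± 0.902 CPM in intact libraries (SD, n = 3 each; log2 fold change 0.20 ± 0.17 SE, adjusted p = 0.532). With both copies summed the log2 fold change was 0.38 ± 0.15 (SE, adjusted p = 0.174). Because the isoforms of the cluster share exons, reads of other cluster members may be counted under this name.

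Xenopus laevis is allotetraploid, and most genes are present as an L and an S homeolog. Both copies were tested for 22 of the homeolog pairs, and in 13 of these the log2 fold changes of the copies had the same sign. In 0 pairs did both copies pass. With homeologs summed, dsp, cdh1 and cdh26 fell among 33 tested genes, or 9.09%, beside 6.19% of all summed genes tested in the paired fit. The share of counts from the L copy was compared between groups in the 22 pairs by the exact permutation test, and the smallest p reached was 0.1 (0.55 adjusted). This test does not use the sibling pairing. In 11 of the 22 homeolog pairs the L share moved one way in all 3 sibling pairs, higher in half-size embryos for 7 and lower for 4, and these directions were not tested. The homeolog counts were made for these genes only, with no share over all homeolog pairs beside them, so whether they are unusual is not known. The p of 0.1 was reached by pcdh7, with L shares of 74.8 ± 3.19% in half-size and 68.2 ± 4.06% in intact libraries, and by pcdha13, with 78.4 ± 2.10% and 88.4 ± 3.22% in half-size and intact libraries (SD, n = 3 each). It was also reached by cdh3, with 67.3 ± 0.862% in half-size and 65.4 ± 0.601% in intact libraries, and by pcdh8, with 41.9 ± 13.5% in half-size and 17.9 ± 8.30% in intact libraries.

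**Figure D3:**
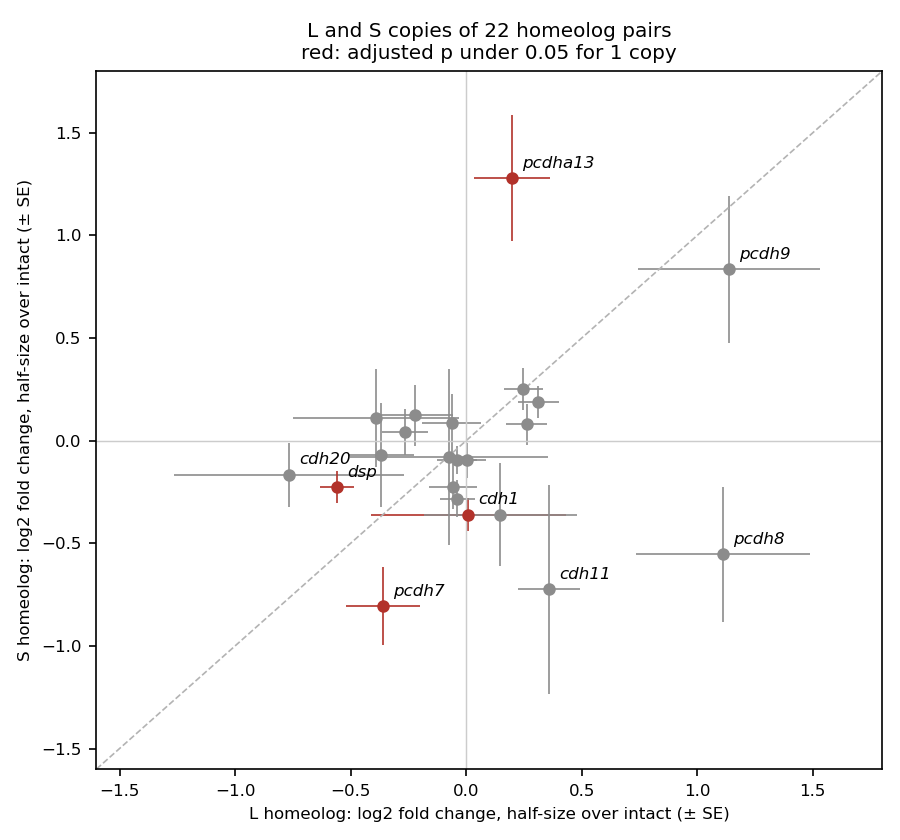
Log2 fold change of half-size over intact embryos for the L copy (x axis) and the S copy (y axis) of 22 homeolog pairs, with bars ± SE from the paired fit and the line of equal change dashed. In red are the 4 pairs in which 1 copy passed, and dsp and pcdh7 lie in the quadrant where both copies are below 0.

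The levels of several of these genes differed between sibling batches. Over the 53 genes the median span of the 3 pair means was 0.58 on the log2 scale, beside 0.59 for all genes tested. In 16 of the 53 genes, or 30.2%, the means of the 3 pairs spanned over 2-fold, beside 23.4% of all genes tested. For example pcdh10.S, chosen after its values were seen, had 1.8, 6.61 and 1.13 CPM in half-size replicates 1, 2 and 3, against 1.04, 9.0 and 1.33 CPM in intact replicates 1, 2 and 3, so that pair 2 stood apart in both groups. Cadherin-6, also chosen after its values were seen, varied in opposite ways in its 2 copies. Over the 6 libraries its counts were low, from 4 to 68 for cdh6.L and from 13 to 92 for cdh6.S. The level of cdh6.S was 3.94, 0.651 and 1.51 CPM in half-size replicates 1, 2 and 3, against 3.37, 0.660 and 1.48 CPM in intact replicates 1, 2 and 3. The level of cdh6.L was 0.171, 1.65 and 1.17 CPM in half-size replicates 1, 2 and 3, against 0.582, 2.36 and 0.887 CPM in intact replicates 1, 2 and 3. In both groups pair 1 was thus the highest for cdh6.S and the lowest for cdh6.L. By contrast the pairs of dsp.L spanned 1.18-fold and those of cdh1.S 1.09-fold. CPM ranges of half-size and intact libraries did not overlap for 6 of the 53 genes, or 11.3%, beside 9.04% of all genes. The log2 ratio had the same sign in all 3 pairs for 26 genes, or 49.1%, beside 44.3% of all genes, 14 of them lower and 12 higher in half-size embryos (26.4% and 22.6%, beside 22.6% and 21.7% of all genes).

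**Figure D4:**
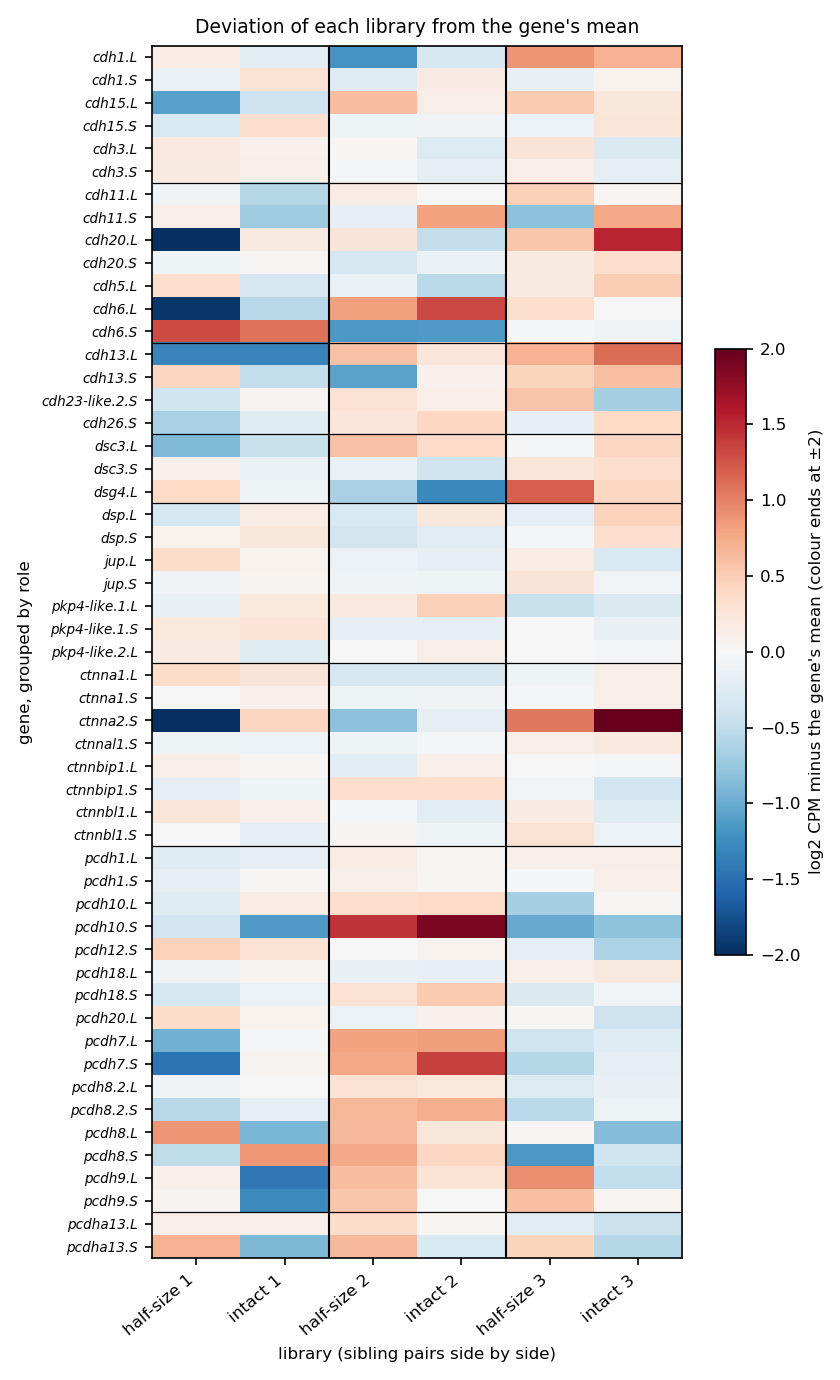
Log2 CPM of each of the 53 tested genes (rows, grouped by role) in each library (columns, siblings side by side) minus the gene's mean over the 6 libraries, where red is above and blue below that mean. Neighbouring columns of 1 pair share colours in many rows, as for pcdh10.S and cdh6.S, while dsp.L is blue in the 3 half-size columns and red in the 3 intact columns.

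The 34 members that were not tested did not pass the filter on low counts, which asks for enough counts in at least 3 libraries. Of these, 4 were at 0 in every library, namely ctnna2.L, pcdhga11.L, pcdhgb7.L and pkp4-like.2.S, which at these depths allows a level of up to 0.113 to 0.150 CPM in half-size and 0.104 to 0.148 CPM in intact libraries (3 counts, counting error only). The highest count of an untested member in 1 library was 56, for cdh10.S, whose total of 94 counts came almost wholly from 2 libraries and was above that of the tested cdh5.L, at 57. They include most type II cadherins, among them cdh7, cdh8, cdh9, cdh12, cdh18, cdh19, cdh22 and cdh24.

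Other genes around these junctions were read from fixed lists in the paired fit, in which 3.93% of all genes tested fell and 1.99% rose. These lists, too, were chosen with earlier results of these data known. Of the listed symbols, 9 of 18 partners of the adherens junction and 2 of 3 desmosome accessory genes were found in the count table. For cadherin regulators 11 of 18 symbols were found, and for atypical cadherins 11 of 18. Homeologs and numbered copies of a symbol were counted as separate genes. Of 18 tested partners of the adherens junction 1 fell and 17 did not pass, and the gene that fell was the nectin pvrl1-like.2.L, at 15.9 ± 0.935 CPM in half-size and 25.3 ± 4.99 CPM in intact libraries (SD, n = 3 each; log2 fold change −0.65 ± 0.12 SE, adjusted p = 0.0121). Nectins are immunoglobulin-like adhesion proteins that are joined to actin by afadin. Of 3 tested accessory genes of the desmosome 1 fell, periplakin ppl.S, a plakin related to desmoplakin, at 20.9 ± 10.5 CPM in half-size and 36.4 ± 7.30 CPM in intact libraries (SD, n = 3 each; log2 fold change −0.88 ± 0.15 SE, adjusted p = 0.00870). Its homeolog ppl.L did not pass (log2 fold change −0.46 ± 0.13 SE, adjusted p = 0.0637). Of 20 regulators of cadherins 1 rose, the small GTPase gene rnd1.L, whose product lowers cell adhesion in Xenopus gastrulae, at 320 ± 115 CPM in half-size and 248 ± 86.1 CPM in intact libraries (SD, n = 3 each; log2 fold change 0.36 ± 0.07 SE, adjusted p = 0.0173). Of 10 atypical cadherins of the Fat, Dachsous, Celsr and calsyntenin families 0 passed. Their log2 fold changes ran from −0.10 for fat1.L to 0.87 for dchs1.L (paired fit, adjusted p = 0.101 for dchs1.L). The mean level of dchs1.L was low, at 1.49 CPM in half-size and 0.829 CPM in intact libraries. The 4 lists had median log2 fold changes of −0.08, −0.46, 0.09 and 0.10, beside 0.00 for all genes tested.

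The authors' deposited table compares the same groups and lists 44 of the members. In the authors' deposited table the adjusted p of all 44 was 1, and the smallest unadjusted p among them was 0.0415, for dsp.L.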

How the data were processed

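Stranded poly(A) RNA libraries of 3 half-size and 3 intact samples were sequenced, per the labels' protocols. The authors deposited read counts per gene, not normalized, and TopHat2, HTSeq and DESeq appear, with neither version nor role, in the submitters' processing notes. Genome build, annotation and strand setting of the counting are not stated there, and coordinates are left out. The authors also deposited their own comparison. In it the means are a signal (counts divided by size factors), the fold is a linear ratio, and log2 fold changes and p-values are given by the authors per the file headers. Names repeated in that table, 4 in number, were left out.

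Counts were tested with edgeR 4.0.16 (quasi-likelihood test) in R 4.3.3 after TMM scaling and filterByExpr, over the whole table, with Benjamini-Hochberg adjusted p-values over all genes tested and a threshold of 0.05, two-sided. The main fit compared the groups with no other term. Libraries of the same number were taken as pairs, since the labels call them siblings and since deviations from the group means of same-numbered libraries correlated at 0.75, 0.82 and 0.68. Values of single genes are therefore from the fit with replicate as a block unless stated otherwise. Standard errors were derived from the F statistic. CPM used TMM-scaled library sizes over tested genes, and log2 ratios within pairs used log2 CPM with a prior count of 2. DESeq2 1.42.0, limma-voom (limma 3.58.1), other scaling, no filter, summed homeologs and left-out libraries were alternatives. The fits were also run on simulated data, whose outcome is not reported here and on which no result rests.

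Named in full were the members that passed in either fit and the homeologs of 15 genes listed by name, 24 genes in all. The members and gene lists were chosen with earlier results of these data known. In RefSeq's table for Xenopus_laevis_v10.1, used for gene order alone, 62 of the 87 members matched by symbol.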

Additional observations from a re-analysis of the deposited data

How the results depend on the processing

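The count of genes called depended on the sibling pairing. Without it edgeR called 0 genes and 0 members, also with RLE scaling, no filter or homeologs summed, and limma-voom called 0. DESeq2 called 52 genes and 0 members. With the replicate block edgeR called 1283 genes and 5 members, 1271 and 5 with RLE scaling, 2568 and 12 with no filter, and 1044 and 3 with homeologs summed. DESeq2 with the block called 1118 and 4, and limma-voom 1364 and 5. The 7 members added with no filter were cdh3.L, ctnna2.S, dsg4.L, jup.L, pcdh8.2.S, pcdh8.L and pcdh9.L, and the cause was not tested. Leaving out 1 library or pair gave 0 to 1471 genes and 0 to 4 members, with the block 1471, 1055 and 507 genes and 2, 4 and 3 members without replicates 1, 2 and 3.

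The 24 named genes had 427 values under alternatives, each set against the fit of the groups alone, in which no named gene passed. Of these values, 366 kept that direction and did not pass either, and 36 passed with the same direction. The other 25 turned in sign, among them 0 of the 5 called genes. A paired call lost when a pair was left out, as for cdh1.S without replicate 2, is therefore among the 366. With 1 library or pair left out, log2 fold changes ranged from −0.56 to 0.55 for cdh1.L, −0.25 to 0.12 for ctnna1.L, −0.57 to 0.14 for dsc3.L, −0.046 to 0.34 for dsc3.S, −0.039 to 0.19 for jup.S, −0.064 to 0.13 for pcdh1.L, −0.92 to 0.15 for pcdh7.L, −0.20 to 0.096 for pcdh8.2.L and −0.75 to 0.14 for pcdh8.2.S. Without a turn in sign they ranged from −1.24 to −0.066 for pcdh8.S, −1.55 to −0.062 for pcdh7.S, −1.44 to −0.20 for cdh11.S, −0.61 to −0.17 for cdh26.S, −0.38 to −0.12 for dsp.S, −0.18 to −0.021 for pcdh1.S, −0.15 to −0.053 for ctnna1.S, −0.44 to −0.29 for cdh1.S, −0.62 to −0.47 for dsp.L, 0.15 to 0.38 for jup.L, 0.20 to 0.45 for cdh3.L, 0.12 to 0.30 for cdh3.S, 0.19 to 0.48 for cdh11.L, 0.69 to 1.66 for pcdh8.L and 1.08 to 1.46 for pcdha13.S. In sign cdh1.L also turned with limma-voom (−0.051). With the block, signs turned for cdh1.L without replicate 1 (−0.18), for pcdh1.L without replicate 2 (−0.049), and without replicate 3 for ctnna1.L (0.049), jup.S (−0.039) and pcdh8.2.L (0.0090). Without half-size replicate 3 jup.S was at −0.030. Summed homeologs give no value for a single copy, so that alternative has no value for single genes. The filter on low counts kept 34 members out of the test.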

Other observations

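Several cadherin genes that did not pass the filter on low counts were counted mainly in 1 sibling pair, in both groups. The gene cdh10.S had 1, 0 and 35 counts in half-size replicates 1, 2 and 3, against 1, 1 and 56 counts in intact replicates 1, 2 and 3. The gene cdh7.L had 1, 0 and 10 counts in half-size replicates 1, 2 and 3, against 0, 0 and 9 counts in intact replicates 1, 2 and 3. The gene cdh19.S had 9, 0 and 0 counts in half-size replicates 1, 2 and 3, against 5, 0 and 0 counts in intact replicates 1, 2 and 3. These genes were chosen after their values were seen, and no test was made.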
